A study of Mus musculus with 3 samples.

Results

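At P14, 2 *Sstr2* knockout retinas were compared with 2 heterozygous retinas to ask which genes and cell types differed once the retina no longer carried a working copy of the receptor gene. The members of this comparison were taken from the genotype and retina that the authors recorded for each cell, and made up 4 of the 18 retinas and explant samples and 2298 of the 14611 cells in the series. Animals of both genotypes were postnatal day 14 littermates of a mixed C57BL/6 and CD1 background. They came from intercrosses of heterozygous F1 mice bred by crossing an engineered deletion allele, Sstr2 em1(IMPC)Mbp, on C57BL/6NCrl to outbred CD1. The deletion is constitutive rather than limited to a cell type, and no agonist or other agent was given. A single wild-type littermate retina of 1000 cells was profiled in the same library and is given only as a reference. All 5 retinas were dissociated with papain, tagged with lipid-anchored MULTI-seq barcodes and pooled into 1 10x Chromium 3′ library. Each sample is called a retina here, but how many eyes or animals a sample held is not given in the sources used here, so the p-values measure only the spread between these samples.

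Sstr2 is a G protein-coupled receptor for the peptide somatostatin. It couples to inhibitory G proteins, lowers cyclic AMP and opens potassium channels. In the mature retina somatostatin is released mainly by amacrine cells, and Sstr2 has been described in amacrine and bipolar cells and in photoreceptors. At P14 the mouse retina has just completed neurogenesis: rods, which carry dim-light vision, are the great majority of cells, bipolar cells relay photoreceptor signals to the inner retina, and Muller glia are the resident support glia.

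The 4 retinas held 740 and 304 cells (heterozygous) and 629 and 625 cells (knockout), with 3632042, 1266730, 3044263 and 3021693 unique molecular identifiers (UMIs, single captured RNA molecules). Genes were tested in 1603 rods, 371 bipolar cells and 190 Muller glia after UMIs were summed per retina and type. Heterozygous retina 2 gave the thinnest sums, with 29 bipolar cells (185664 UMIs) and 14 Muller glia (148196 UMIs). Each annotated type carried its own markers at similar levels in the 4 retinas: 8 rod markers summed to between 36998 and 40092 CPM (UMIs scaled to a sum of 1000000) in rods, bipolar markers to between 9283 and 10994 CPM in bipolar cells and Muller glia markers to between 28234 and 31134 CPM in Muller glia. Heterozygous retina 2 stood apart in sex-linked RNA, with *Xist* at 1903 CPM and Y-linked transcripts at 29.2 CPM over all cells, against 5.63 to 12.9 and 177 to 240 CPM in the other 3 retinas. Of its 304 cells 202 held *Xist* and no Y-linked UMI, 13 the reverse and 19 both. The P14 library shared 7 cell barcodes with the P0 library and 4 with the explant library.

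The targeted gene itself was too rarely captured to check the genotypes. *Sstr2* had 0 UMIs in the rods, bipolar cells, Muller glia and cones of every retina. Over the summed rods 3 UMIs, the limit that a count of 0 allows, correspond to 1.48 and 3.61 CPM in heterozygous retinas and 2.53 and 2.08 CPM in knockout retinas, so expression below these levels was not detectable. All its UMIs lay in amacrine cells: 2 in 1 heterozygous cell of retina 1, 0 in heterozygous retina 2, 1 in knockout retina 1 and 13 in 2 cells of knockout retina 2. Knockout retina 2 thus held the most *Sstr2* UMIs of the 5 retinas, and where the deletion lies relative to the counted 3′ end is not given in the sources used here. At P0 the paper reported more *Sstr2* mRNA in neurogenic progenitors of mutants than of controls. Summed over all cells of a P0 retina, *Sstr2* was at 22.5 and 33.5 CPM in heterozygous and 41.1 and 43.1 CPM in knockout retinas (log2 fold change 0.59, edgeR adjusted p = 0.966). *Sst*, the somatostatin gene, had a single UMI, in heterozygous retina 1.

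The gene with the clearest difference was *Gm8797*, which fell in the knockout in rods, bipolar cells and Muller glia alike. *Gm8797* is a single-exon gene of 490 bases on the forward strand at chr3:5750806-5751295 (GRCm38) whose coding sequence is a near copy of 1 repeat of *Ubb*, the polyubiquitin gene at chr11:62551171-62553213 that encodes ubiquitin as 4 tandem repeats. *Sstr2* lies at chr11:113619342-113626028, on another chromosome from *Gm8797* and on the same chromosome as *Ubb*. The coding sequence of *Gm8797* (chr3:5750904-5751137) and the last *Ubb* repeat with its stop codon (chr11:62552830-62553063), both read from GRCm38 on the forward strand, are shown because reads of the 2 genes can be told apart only where the copies differ, and the last repeat is the one nearest the counted 3′ end. Capitals mark the bases at which they differ.
Gm8797: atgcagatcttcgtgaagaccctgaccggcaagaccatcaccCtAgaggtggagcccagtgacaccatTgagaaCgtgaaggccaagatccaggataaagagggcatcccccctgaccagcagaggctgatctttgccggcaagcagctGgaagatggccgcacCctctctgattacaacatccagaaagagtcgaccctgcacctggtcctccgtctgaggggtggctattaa
Ubb: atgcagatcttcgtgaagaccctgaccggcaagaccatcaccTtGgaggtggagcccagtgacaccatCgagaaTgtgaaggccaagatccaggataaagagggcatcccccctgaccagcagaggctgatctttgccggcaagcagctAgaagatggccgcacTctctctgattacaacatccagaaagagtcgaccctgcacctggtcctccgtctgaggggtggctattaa
They differed at 6 of 234 bases (97.4% identity). Over a single repeat without the stop, the 4 *Ubb* repeats differed from *Gm8797* at 6, 3, 8 and 6 bases, so repeat 2 was the closest. The 149 aligned bases after the stop codon, nearest to the 3′ end that the library counts, held 0 differences. How the authors' pipeline divided reads between the copies was not tested, so the split between them is uncertain. The animals were of a mixed background, and whether the retinas carried different alleles at either locus was not tested.

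In rods *Gm8797* was at 248 and 259 CPM in heterozygous retinas and 38.1 and 36.1 CPM in knockout retinas. The genotypes did not overlap, and the log2 fold change was -2.77 (SE 0.14, edgeR quasi-likelihood test, adjusted p = 9.19e-07). In bipolar cells it was at 211 and 250 against 37.0 and 23.8 CPM (log2 fold change -2.88, SE 0.33, edgeR adjusted p = 1.73e-05). In Muller glia it was at 222 and 227 against 36.8 and 29.3 CPM (-2.73, SE 0.26, edgeR adjusted p = 5.62e-05). CPM of the tested genes are scaled by edgeR's TMM factors, and those of the wild-type retina and of summed marker lists are plain CPM. The wild-type retina was higher still, at 496, 390 and 436 CPM in the 3 types. The fold change in bipolar cells differed from that in rods by -0.07 (SE 0.36), that in Muller glia from bipolar cells by 0.07 (SE 0.40) and that in Muller glia from rods by 0.00 (SE 0.46), and none of these 3 differences passed the test (edgeR adjusted p = 1).

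The difference was spread over cells rather than carried by a few. A *Gm8797* UMI was found in 54.7% and 54.5% of heterozygous rods and in 11.2% and 10.8% of knockout rods, against 77.2% of wild-type rods. Among Muller glia, whose cells held more UMIs, the shares were 83.0% and 92.9% against 21.3% and 29.2%. Median depths of rods were alike, at 3308.5 and 3223 UMIs per heterozygous and 3313 and 3207.5 UMIs per knockout cell.

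*Ubb* showed no such step. In rods it was at 3141 and 3458 CPM in heterozygous retinas and 3310 and 3538 CPM in knockout retinas (log2 fold change 0.05, edgeR adjusted p = 1.00). *Ubb* was so much more abundant that UMIs moved to it from *Gm8797* would change it little. The 2 genes together were at 3360 and 3588 against 3337 and 3563 plain CPM in rods, with overlapping genotypes. Whether UMIs moved between them was not tested. Of the UMIs assigned to either gene over all cells, *Gm8797* took 1.20% and 1.14% in knockout retinas, 7.04% and 7.33% in heterozygous retinas and 14.2% in wild type. The share was thus ordered by genotype at P14, the wild type being 1 retina. In separate retinas at P0 it was 0.589% and 0.623% in knockout retinas, 14.0% and 7.38% in heterozygous retinas and 7.40% in wild type, so the knockout was again lowest but the wild type lay with 1 heterozygous retina. The study had already named *Gm8797* among 11 genes that differed between wild-type and knockout neurogenic progenitors of these P0 retinas. Summed over all cells of a P0 retina, *Gm8797* was at 439 and 226 against 18.8 and 20.1 CPM in heterozygous and knockout retinas (log2 fold change -4.09, edgeR adjusted p = 0.0538). In the same P0 sums *Ubb* was at 2703 and 2834 against 3179 and 3197 CPM, without overlap (log2 fold change 0.20, edgeR adjusted p = 0.887).

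**Figure D1:**
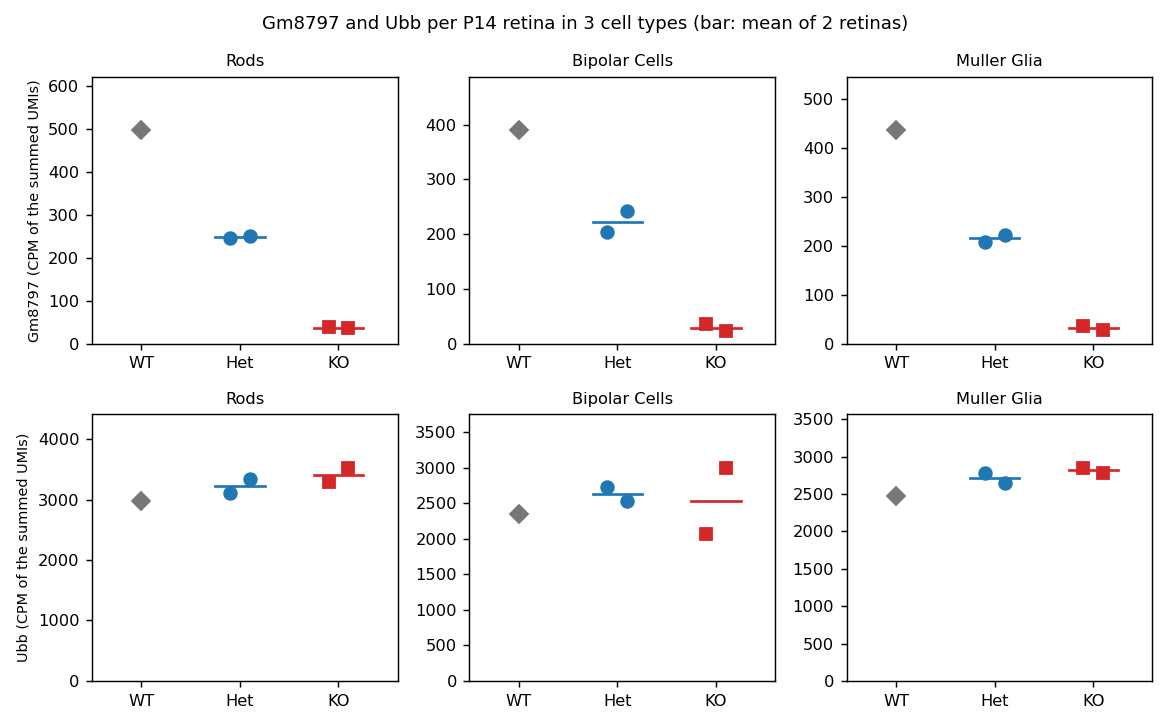
*Gm8797* (upper row) and *Ubb* (lower row) in CPM of the summed cells, for each P14 retina in rods, bipolar cells and Muller glia, with lines at the mean of 2 retinas. The knockout retinas lie below both heterozygous retinas for *Gm8797* in each type, while the *Ubb* values of the genotypes lie close together.

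Beyond *Gm8797*, few genes passed the test. Of 8580 genes tested in rods 1 fell (0.0117%) and 0 rose (0.0%). Of 7622 tested in bipolar cells 3 fell (0.0394%: *Gm8797*, *Xist* and *Lyz2*) and 0 rose (0.0%). Of 7326 tested in Muller glia 2 fell (0.0273%: *Gm8797* and *Gadd45b*) and 0 rose (0.0%). DESeq2 and limma also called 0 genes higher in any type. At an unadjusted edgeR p under 0.05, 120, 160 and 111 genes were higher and 129, 90 and 106 lower in rods, bipolar cells and Muller glia, which is 2.90%, 3.28% and 2.96% of the genes tested. The median log2 fold change over all genes was -0.01, 0.00 and 0.00. The counts depended on single retinas: without knockout retina 2 they became 44, 61 and 47, without heterozygous retina 2 12, 9 and 47, without heterozygous retina 1 6, 16 and 36 and without knockout retina 1 1, 11 and 29, in fits that assume the lone retina varied like the other genotype.

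**Figure D2:**
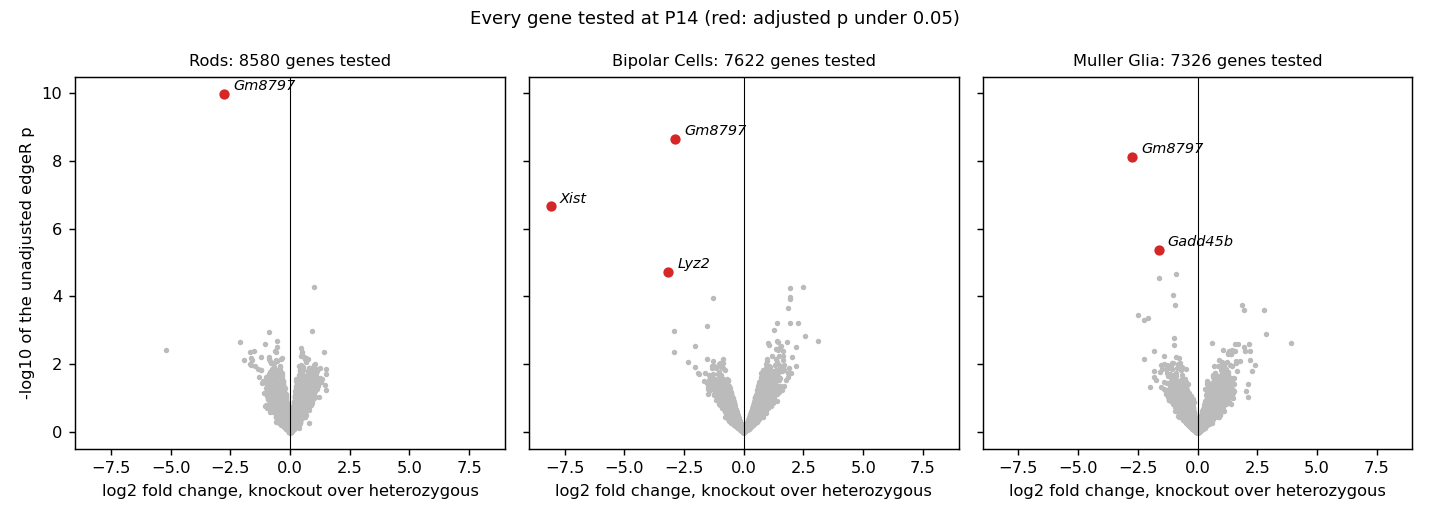
Log2 fold change of knockout over heterozygous (x axis) against -log10 of the unadjusted edgeR p (y axis) for every gene tested in rods, bipolar cells and Muller glia. Genes past an adjusted p of 0.05 are red, and all of them lie to the left of 0.

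In rods the phototransduction genes were at like levels in both genotypes. Of the 21 genes of the rod phototransduction list all were tested and 0 passed, with log2 fold changes between -0.23 and 0.11 and a median of 0.02, against -0.01 over all genes. *Gngt1*, the rod transducin gamma subunit, was at 14789 and 18009 CPM in heterozygous retinas and 16270 and 15418 CPM in knockout retinas. *Sag*, the rod arrestin, was at 11502 and 13169 against 12224 and 11478 CPM. The genotypes overlapped for both. Both knockout retinas exceeded both heterozygous ones for 3 of the 21 genes and were below them for 0, against 15.5% and 15.8% of all genes tested.

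Of 13 tested photoreceptor transcription factors 0 passed (median -0.06). Of these 3 had an unadjusted edgeR p under 0.05, against 2.90% of all genes tested in rods. Both knockout retinas were below both heterozygous ones for 4 (30.8%) and above them for 2 (15.4%), against 15.8% and 15.5% of all genes tested. *Nrl*, the factor that sets rod fate, was at 2079 and 1829 against 1939 and 2041 CPM, with overlapping genotypes. *Nr2e3*, which represses cone genes in rods, was at 2201 and 1953 against 2445 and 2469 CPM (log2 fold change 0.24, SE 0.10, edgeR adjusted p = 1.00). *Mef2c*, a MADS-box factor named after its values were seen, was at 82.9 and 57.3 against 35.5 and 42.3 CPM, without overlap, and 46.8 CPM in the wild type (-0.90, SE 0.21, edgeR adjusted p = 1.00). Of the other rod lists, 0 of 20 outer segment genes (median 0.01) and 0 of 22 ribbon synapse genes (median 0.05) passed. Among them *Prph2*, a disc rim protein, was at 3793 and 3679 against 3810 and 3699 CPM and *Slc17a7*, the vesicular glutamate transporter, at 920 and 944 against 962 and 979 CPM.

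The rod genes of largest change without overlap between genotypes were low and did not pass. *Cfap54*, a ciliary gene, was at 5.96 and 2.49 against 18.6 and 9.72 CPM (log2 fold change 1.49) and *Nfib*, a transcription factor, at 5.46 and 6.23 against 16.1 and 11.8 CPM (1.26). *Lrfn2*, a synaptic adhesion protein, was at 15.4 and 19.9 against 2.54 and 7.63 CPM (-1.66). *Dqx1*, *Cep95* and *Slc15a2* had log2 fold changes of 1.42, 1.15 and 1.13, and *Hist1h4h*, *Gm27032* and *Sft2d1* of -1.61, -1.52 and -1.29, all with an edgeR adjusted p of 1.00. *Lrpprc*, which stabilises mitochondrial mRNAs, was chosen after its values were seen: it was at 44.7 and 43.6 against 92.2 and 85.4 CPM, with 137 CPM in the wild type (log2 fold change 1.00, SE 0.16, edgeR adjusted p = 0.224).

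In bipolar cells the synaptic machinery and fate factors also gave 0 calls. Of 14 tested genes of the ON bipolar cascade, by which the metabotropic glutamate receptor mGluR6 closes the Trpm1 channel, the log2 fold changes lay between -0.29 and 0.51 with a median of -0.05. *Trpm1* itself was at 3243 and 3157 CPM in heterozygous retinas and 3238 and 3057 CPM in knockout retinas. *Prkca*, protein kinase C alpha of rod bipolar cells, was at 1050 and 762 against 1233 and 1374 CPM, and the genotypes did not overlap (log2 fold change 0.51, SE 0.30, edgeR adjusted p = 1.00). Both knockout retinas were above both heterozygous ones for 3 of the 14 genes and below for 1, against 15.7% and 14.4% of all genes tested in bipolar cells. Of 20 ribbon synapse genes 0 passed (median -0.05). Of 12 bipolar transcription factors 0 passed (median -0.06), with *Isl1* at 1317 and 1440 against 1156 and 1464 CPM.

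The other 2 bipolar calls each rested on 1 heterozygous retina. *Xist*, the noncoding RNA that silences an X chromosome in females, was at 41.8 and 5353 against 15.1 and 3.67 CPM (log2 fold change -8.07, edgeR adjusted p = 0.000840). Without heterozygous retina 2, the retina rich in *Xist*, the fold change was -2.10 and did not pass (edgeR adjusted p = 0.611). *Lyz2*, a lysozyme of macrophages and microglia, was at 242 and 5.56 against 23.5 and 9.17 CPM (log2 fold change -3.16, SE 0.61, edgeR adjusted p = 0.0485). Without heterozygous retina 1 its fold change was 1.52 in the opposite direction (edgeR adjusted p = 0.999).

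The *Lyz2* UMIs came from cells that carry RNA of the microglia marker list. In 8 P14 cells at least 5 UMIs of the microglia marker list were found, and 6 of these were annotated as bipolar cells. They held every *Lyz2* UMI of the bipolar sums (139 and 1 in the heterozygous, 14 and 5 in the knockout retinas), 130 of them in a single heterozygous cell. That cell had 28 marker UMIs among 8075, and whether it was a microglial cell or another macrophage was not tested. The microglia markers summed to 207 and 86.2 CPM in heterozygous and 759 and 303 CPM in knockout bipolar sums. The wild-type bipolar sum, at 391 CPM, lay between the knockout retinas. The bipolar genes with the largest positive fold changes included *C1qc*, a complement component of microglia, at 19.2 and 5.56 against 124 and 47.7 CPM (log2 fold change 2.47, edgeR adjusted p = 0.0842). Of the *C1qc* UMIs 11, 1, 74 and 25 of 11, 1, 74 and 26 lay in those cells with microglial RNA. Only 1 bipolar cell per retina held *C1qc*, except in knockout retina 2, where 2 cells did. The microglial cell of knockout retina 1 was a large one, with 17063 UMIs, of which 474 were microglia markers. The marker sums and *C1qc* values thus describe few cells and do not measure how much microglial RNA a genotype held.

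*Sparc*, a matrix glycoprotein, was at 26.1 and 27.8 against 129 and 75.2 CPM (log2 fold change 1.94, edgeR adjusted p = 0.0842), and without the microglial cells at 17.1 and 28.2 against 65.3 and 43.1 plain CPM. *Zfp729a*, a zinc finger gene, was at 8.71 and 5.56 against 37.0 and 42.2 CPM (2.29, edgeR adjusted p = 0.398), and *Tbce*, a tubulin cofactor, at 12.2 and 16.7 against 60.5 and 44.0 CPM (1.94, edgeR adjusted p = 0.398). Neither passed, although the genotypes did not overlap. *Cck*, cholecystokinin, was at 50.5 and 100 against 31.9 and 0 CPM (-2.03), and *Gm32585* had a log2 fold change of -1.54. *Nnat*, neuronatin, chosen after its values were seen, was at 253 and 272 against 116 and 97.2 CPM, with 136 CPM in the wild type (-1.29, SE 0.28, edgeR adjusted p = 0.115). Muller glia markers in the bipolar sums were highest in knockout retina 1, at 1404 CPM against 345 to 563 CPM in the other 4 retinas. Of the 884 UMIs of that sum 505 were *Apoe*, a listed marker, in 1 cell that carried microglial RNA. Without the microglial cells *Glul*, another listed marker, was at 217 plain CPM in that retina, against 50.8 to 95.4 in the other 4. Median depth was also lowest in knockout retina 1, at 2697 UMIs per cell against 4353 to 6214. The part of marker RNA or of depth in these values was not tested.

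In Muller glia the support functions were at like levels while *Gadd45b* fell. *Gadd45b*, a stress-induced regulator of MAP kinase signaling and DNA demethylation, was at 204 and 172 CPM in heterozygous retinas and 69.7 and 53.4 CPM in knockout retinas, with 116 CPM in the wild type between them. The groups did not overlap (log2 fold change -1.63, SE 0.24, edgeR adjusted p = 0.0158). Its UMIs numbered 137 and 25 in heterozygous and 53 and 31 in knockout retinas. They lay in 28 and 4 against 16 and 13 cells, so the value of heterozygous retina 2 describes few cells. The call was lost with DESeq2 (adjusted p = 1.00), with limma on the normalized values (adjusted p = 0.911), with at least 10 UMIs in every retina (edgeR adjusted p = 0.0722) and after thinning to equal totals (edgeR adjusted p = 0.500), while the log2 fold change stayed between -1.80 and -1.57 in these. Of 19 tested immediate early genes, which answer dissociation and other stimuli within minutes, *Gadd45b* was the 1 that passed. The list's median was 0.02, and *Fos*, its most abundant member, was at 7540 and 5471 against 5657 and 6518 CPM.

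The 26 homeostasis genes of Muller glia gave 0 calls and a median of -0.05 (range -0.65 to 0.40), with both knockout retinas above both heterozygous ones for 3 and below for 4, against 15.4% and 15.2% of all genes tested. *Glul*, glutamine synthetase, was at 8150 and 8434 against 7941 and 8196 CPM, and *Apoe*, the glial lipid carrier, at 9849 and 9792 against 8970 and 8522 CPM. Of 17 gliosis genes 10 were tested, 0 passed and 4 had an unadjusted edgeR p under 0.05, against 2.96% of all genes tested in Muller glia. The median was -0.34, and both knockout retinas were below both heterozygous ones for 3 and above them for 1. *Mt1*, a zinc-binding metallothionein, was at 1946 and 1812 against 1087 and 944 CPM and stood just outside the threshold (log2 fold change -0.89, SE 0.15, edgeR adjusted p = 0.0522). The wild-type retina, at 981 CPM, lay with the knockout. *Gfap*, the classical marker of reactive glia, named after its values were seen, was at 152 and 0 against 56.5 and 1.72 CPM, so the retinas differed widely within each genotype. Its UMIs lay in only 3 and 0 heterozygous and 2 and 1 knockout cells, so these values describe few cells.

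Further Muller glia genes without overlap did not pass. *Pim1*, a kinase induced by cytokines, was at 187 and 103 against 56.5 and 48.2 CPM, with 71.9 CPM in the wild type (log2 fold change -1.60, edgeR adjusted p = 0.0522). *Prss56*, a serine protease, was at 56.5 and 227 against 22.4 and 24.1 CPM (-2.26, edgeR adjusted p = 0.314), and *Sft2d1* was at 72.9 and 55.1 against 6.57 and 27.6 CPM (-2.07), with 18.6 CPM in the wild type. Of the 5 genes with the largest positive fold changes, *Oasl2* and *Ifitm3* are interferon-induced genes. *Oasl2* was at 8.92 and 0 against 67.1 and 32.7 CPM (2.79, edgeR adjusted p = 0.207), on 6 and 0 against 51 and 19 UMIs. *Ifitm3* was at 16.4 and 34.5 against 94.7 and 63.7 CPM (1.97, edgeR adjusted p = 0.207), with 76.6 CPM in the wild type. The Muller glia sum of knockout retina 2 also held 1 cell with microglial RNA. Microglia markers summed to 310 CPM there, against 0 to 5.09 CPM in the Muller glia of the other retinas. *Lgals3bp*, *Cxcl14* and *Egfl7* had log2 fold changes of 2.19, 2.14 and 1.96 (edgeR adjusted p = 1.00). Chosen after their values were seen, *Socs3*, a feedback inhibitor of cytokine signaling, was at 523 and 634 against 333 and 262 CPM (-0.94, edgeR adjusted p = 0.190), and *Mt3* at 384 and 469 against 195 and 219 CPM (-1.02, edgeR adjusted p = 0.137). The wild-type retina was at 192 CPM for *Socs3* and 251 CPM for *Mt3*, nearer the knockout than the heterozygous retinas.

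**Figure D3:**
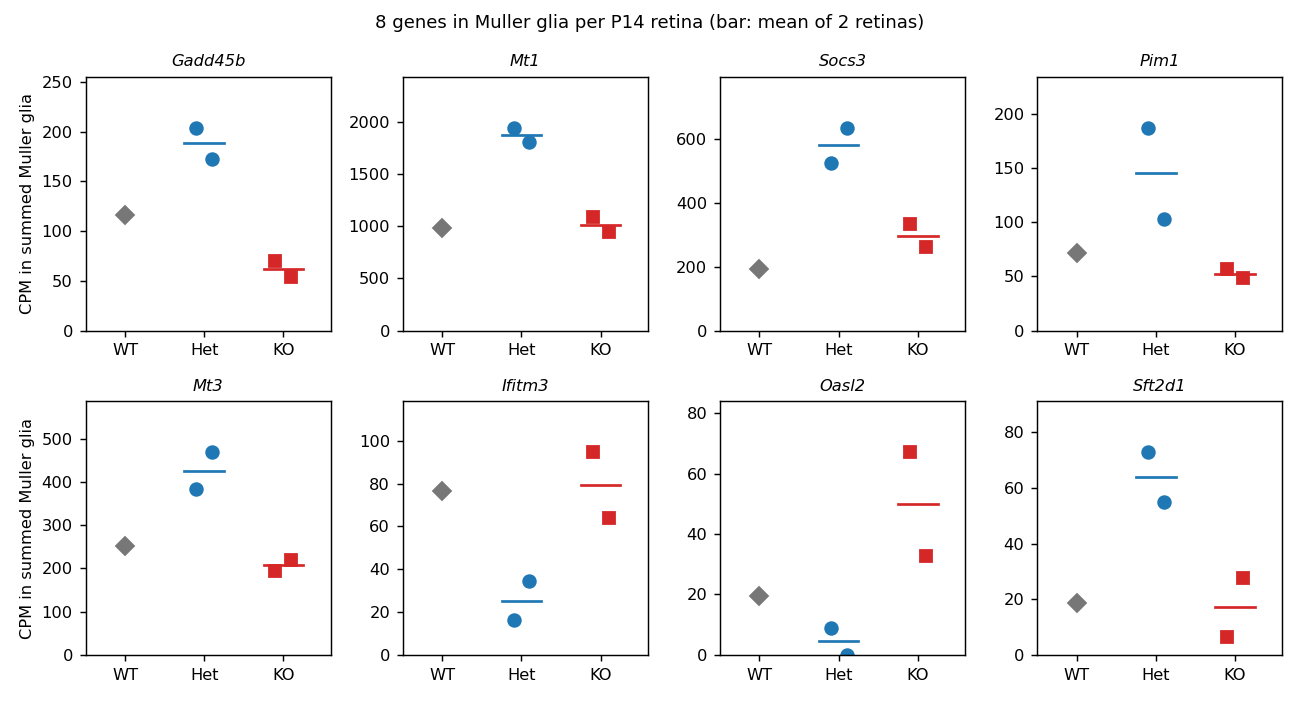
CPM of 8 genes in the summed Muller glia of each P14 retina, with lines at the mean of 2 retinas (wild type not TMM scaled). *Gadd45b* alone passed the test, and for each gene except *Oasl2* the wild-type retina lies closer to the knockout than to the heterozygous mean.

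Somatostatin signaling genes were sparsely captured and gave 0 calls. Of the 22 listed genes 19 were in the table and 5, 8 and 8 were tested in rods, bipolar cells and Muller glia, with medians of 0.02, 0.05 and 0.04. Both knockout retinas were above both heterozygous ones for 0, 3 and 0 of them, against 15.5%, 15.7% and 15.4% of all genes tested. They were below for 0, 1 and 0, against 15.8%, 14.4% and 15.2%. *Gnai2*, an inhibitory G protein subunit through which the receptor acts, was at 99.3 and 106 against 99.1 and 93.5 CPM in bipolar cells and at 1121 and 972 against 1032 and 1341 CPM in Muller glia. *Gnao1*, encoding the related Go subunit, was at 1118 and 984 against 875 and 1080 CPM in bipolar cells. Of 277 genes within 10 Mb of *Sstr2*, which tend to be inherited together with the targeted allele, 146, 124 and 117 were tested, 0 passed in any type and the medians were 0.03, 0.00 and 0.04.

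Energy and translation genes gave 0 calls in the 3 types. The 13 mitochondrially encoded genes had medians of -0.22 in rods, 0.18 in bipolar cells and -0.08 in Muller glia. Their sum in bipolar cells was highest in knockout retina 1, at 149034 CPM against 93392 to 108285 CPM in the other 3 retinas. Of 80 tested ribosomal protein genes, medians were -0.05, -0.20 and -0.11, and both knockout retinas were below both heterozygous ones for 32, 12 and 42 of them, against 15.8%, 14.4% and 15.2% of all genes tested, and above them for 4, 0 and 1. Of the nuclear oxidative phosphorylation genes 84, 81 and 86 were tested, with medians of -0.10, -0.22 and -0.07, and both knockout retinas were below both heterozygous ones for 36 (42.9%), 16 (19.8%) and 14 (16.3%) and above them for 1, 1 and 4. Their bipolar sums also overlapped, at 32745 and 28761 against 21895 and 31280 CPM, again lowest in knockout retina 1. Glycolysis genes (18, 18 and 19 tested) had medians of -0.10, -0.17 and 0.05, heat shock genes (12, 9 and 10) of -0.12, -0.20 and -0.02 and apoptosis genes (8, 9 and 12) of 0.02, 0.07 and -0.12. Glycolysis genes in bipolar cells summed to 8295 and 8877 against 6864 and 8493 CPM, with overlapping genotypes. Neurogenesis and cell cycle genes (9, 6 and 8 tested) gave 0 calls with medians of 0.10, -0.22 and 0.04, and immediate early genes in rods and bipolar cells (17 each) 0 calls with medians of -0.11 and 0.18. Lens crystallins had 1, 0 and 2 members tested and 0 calls, with medians of 0.76 in rods and 0.14 in Muller glia. The rod member was *Cryab*, also in the heat shock list, at 18.9 and 18.7 against 49.9 and 16.0 CPM, with overlapping genotypes. It does not measure carry-over from the lens, and separate lens markers held 0 and 0 against 1 and 0 UMIs in rods. The rod lists in bipolar cells and Muller glia, the bipolar lists in rods and Muller glia and the Muller glia lists in rods and bipolar cells also gave 0 calls. The Muller glia homeostasis list had a median of 0.34 in rods, with sums of 991 and 849 against 1603 and 865 CPM. Muller glia markers in the rod sums were highest in knockout retina 1, at 661 CPM against 244 to 361 CPM in the other retinas. The part of Muller glia RNA in the rod values was not tested. Of the 10 genes of the sex list 9, 9 and 8 were tested, with medians of 0.04, 0.08 and 0.53, and *Xist* in bipolar cells was the only call. Of 11 genes the study named for the P0 knockout, 9, 9 and 8 were tested at P14 and the calls were *Gm8797* in each type and *Xist* in bipolar cells.

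**Figure D4:**
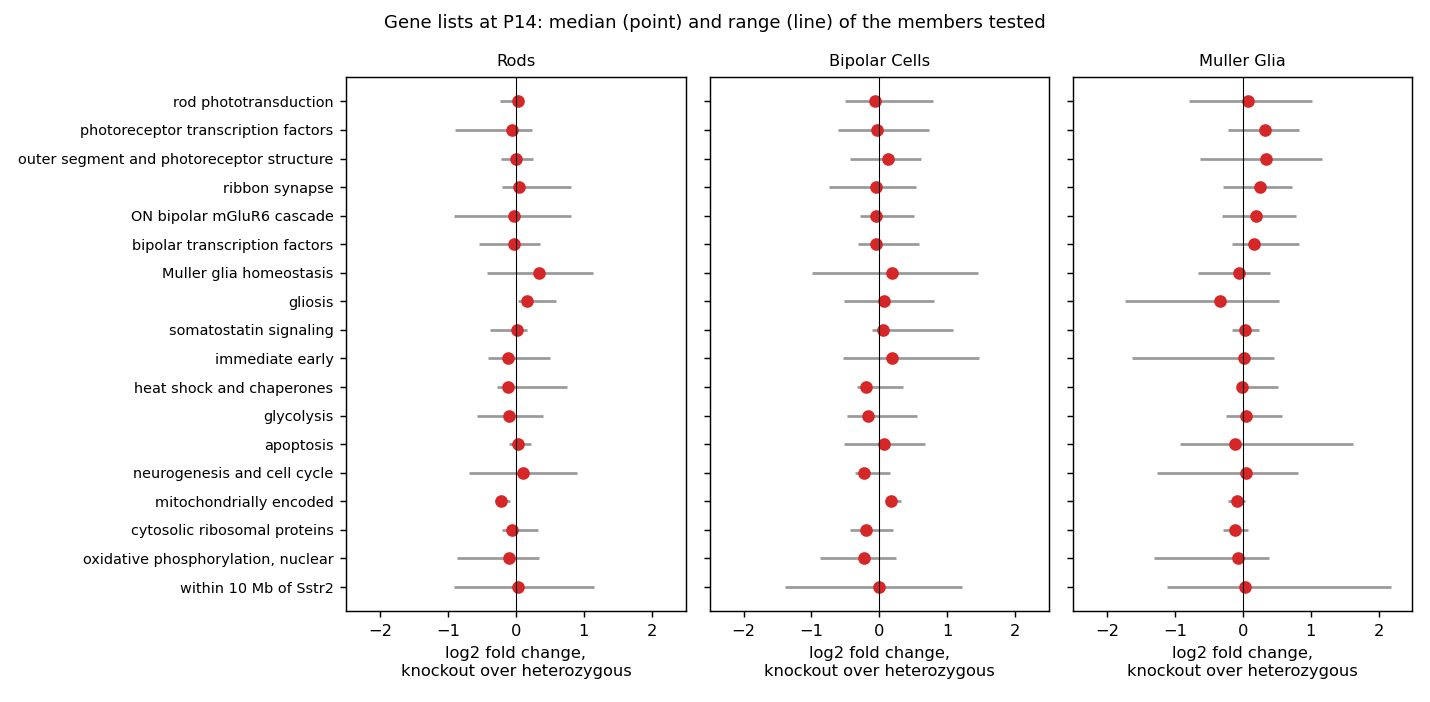
Log2 fold change of knockout over heterozygous for 18 gene lists in rods, bipolar cells and Muller glia, as the median (point) and range (line) of the members tested. Medians of the lists drawn lie between -0.34 and 0.34, and the lens crystallin, sex and P0 knockout lists are not drawn.

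The knockout effect was also compared between types in 1 model over 9883 genes. For bipolar cells minus rods and Muller glia minus rods 0 genes passed (323 and 320 at an unadjusted edgeR p under 0.05), and for Muller glia minus bipolar cells 1 gene, *Ifitm3*, passed (363 unadjusted). *Gadd45b* was called in Muller glia and was tested without a call in rods. In bipolar cells it was too low to be tested by itself, with 3 and 3 UMIs in heterozygous and 7 and 8 in knockout retinas. Its knockout effect did not differ past the threshold between Muller glia and bipolar cells (difference in log2 fold change -2.39, edgeR adjusted p = 1). The same held for Muller glia against rods (-1.26).

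The makeup of the retinas differed between genotypes without overlap for 4 of 5 cell types, in a design too small for the exact test to reach the threshold. Rods made up 77.3% and 80.9% of heterozygous and 53.9% and 71.4% of knockout cells, which is 79.1% ± 2.56 against 62.6% ± 12.3 (SD, n = 2 retinas each). Bipolar cells were 12.3% and 9.54% against 25.3% and 14.7%. Muller glia were 7.16% and 4.61% against 11.9% and 7.68%. Amacrine cells, few in number, were 0.541% and 1.32% against 3.50% and 3.68%, on 4 and 4 against 22 and 23 cells. Cells with this annotation also held horizontal cell markers, which summed to 14414 and 0 CPM in heterozygous and 2497 and 4145 CPM in knockout retinas, so the label covered more than amacrine cells. Cones overlapped, at 2.70% and 3.62% against 5.41% and 2.56%. The wild-type retina lay between the 2 knockout retinas, at 66.8% rods (exact Clopper-Pearson 95% interval 63.8% to 69.7%, for counting error only) and 20.7% bipolar cells (18.2% to 23.3%). For Muller glia (7.6%) and amacrine cells (1.5%) it lay above both heterozygous and below both knockout retinas. For P14 the paper reported different proportions across genotypes by a chi-squared test over cells. It called this likely driven by an excess of rods in heterozygous cells relative to wild type and knockout, of unclear significance. By P14 staining it found no difference in Lhx2-positive cell density or in the joint thickness of outer segments and outer nuclear layer.

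Differences in mean share were -16.5 percentage points for rods, 9.08 for bipolar cells, 3.92 for Muller glia, 2.66 for amacrine cells and 0.822 for cones. An exact two-sided permutation test of 2 against 2 retinas cannot go below p = 0.333, which the first 4 types reached (adjusted p = 0.417), and cones gave p = 1. Shares sum to a whole: among cells that were not rods, bipolar cells made up 52.1% and 53.1% on average in heterozygous and knockout retinas, while the Muller glia difference was -1.50 points and that of cones -5.10 points, both reversed in direction. Amacrine cells kept theirs, at 2.38% and 6.90% against 7.59% and 12.8%, with 4.52% in the wild type. Their means were 4.64% against 10.2%, a difference of 5.58 points, and each heterozygous value rests on 4 cells. Fewer rods recovered and more cells of the other types recovered cannot be told apart. Without knockout retina 1 the rod difference was -7.75 points and the bipolar difference 3.80 points.

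**Figure D5:**
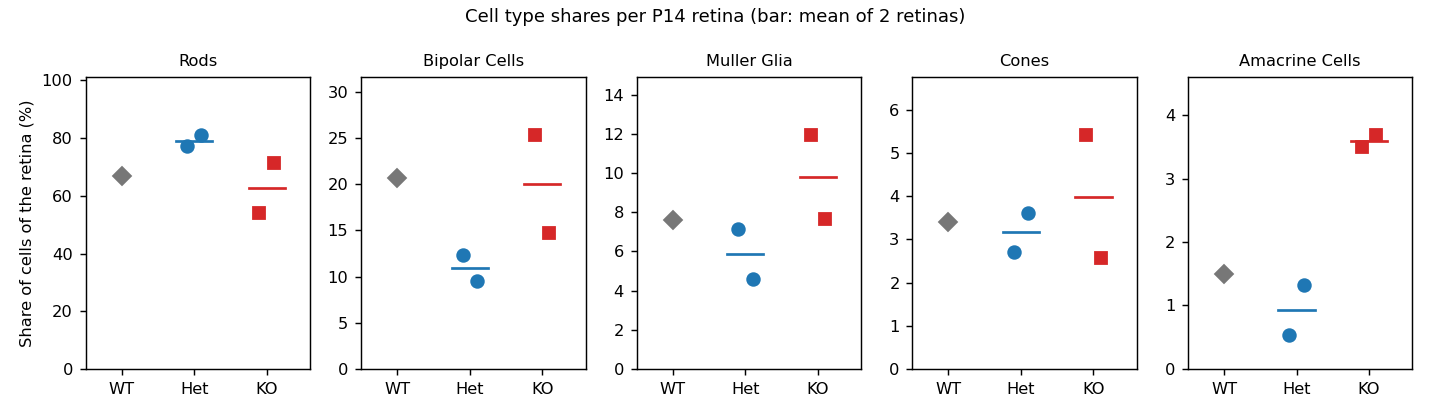
Share of cells (%) of 5 annotated cell types in each P14 retina, with lines at the mean of 2 retinas. Knockout retina 1 holds the lowest rod share, 53.9%, and the highest bipolar share, 25.3%, and the wild-type retina lies between the knockout retinas for both.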

How the data were processed

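Single cells of 5 P14 retinas from 1 pooled MULTI-seq library were analysed. The deposited raw counts are whole UMIs per gene and cell for 17849 genes, which the authors obtained with Cell Ranger 3.1.0 on mm10, assigning cells to retinas with deMULTIplex and working in Seurat 3 (versions from the submitters' processing notes). The deposited normalized values are on a natural log scale, ln(1 + depth-corrected count), as given by SCTransform in the hands of the authors. Filters on cells are not given in the sources used here. Genotype, retina and cell type were the authors' annotation of each cell.

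UMIs were summed per retina and type (148196 to 2031700 in the 4 retinas tested), filtered with filterByExpr and tested with edgeR 4.0.16 (quasi-likelihood, TMM, Benjamini-Hochberg over all genes tested, threshold 0.05, 2 against 2 retinas, wild type left out) in R 4.3.3. Depth limits the bipolar and Muller glia sums most. Differences between types came from 1 model with genotype by type terms. Shares were tested by exact two-sided permutation. Alternatives were DESeq2 1.42.0, its size factors, limma 3.58.1 on the normalized values, other filters, the wild type in the fit, thinning, leaving out each retina and leaving out microglial cells, cells by sex transcripts or doublet-like cells. The last 3 were chosen after seeing the data. The sex rule kept cells without *Xist*, but in heterozygous retina 2 only the 202 of 304 cells with *Xist* and no Y-linked UMI. It thus also left out 70 cells there that held neither, and made that retina thinner. Scrublet, run in scanpy 1.11.5, marked 2 of the P14 cells, both wild type, too few for its call to be used. Instead, cells scoring above the cut for the top 5% were left out, which were 122 of 3298 cells. The scripts were tested on simulated data.

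The comparison and the gene lists were chosen with earlier results of these data known: rod, bipolar and Muller glia function, gliosis, somatostatin signaling, immediate early, heat shock, metabolic, apoptosis, neurogenesis, lens, sex, P0 knockout, mitochondrial and ribosomal genes and those within 10 Mb of *Sstr2*. Named genes were those past the threshold, the 5 largest rises and falls without overlap among genes with at least 50 UMIs, the 3 most abundant members of each list, *Sstr2*, *Sst*, and the sex and P0 knockout lists, of which some are given only as counts. *Ubb* was added after the values of *Gm8797* were seen. Some genes that the rule names are not reported here. Positions and sequences were read from GRCm38 with GENCODE M21. On it 17601 of the genes were placed.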

Additional observations from a re-analysis of the deposited data

Results flagged for a closer look

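*Ifitm3*, an interferon-induced membrane protein, was the 1 gene whose knockout effect differed between types by a test of the difference itself. In Muller glia it was at 16.4 and 34.5 CPM in heterozygous retinas and 94.7 and 63.7 CPM in knockout retinas. In bipolar cells it had 17 and 0 against 1 and 0 UMIs, and the 17 UMIs of heterozygous retina 1 lay in 1 cell. The log2 fold change in Muller glia minus that in bipolar cells was 6.32 (SE 1.20, edgeR adjusted p = 0.0469), a value that rests on bipolar sums with UMIs in 2 cells. Without heterozygous retina 1, 0 genes passed for this pair of types.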

How the results depend on the processing

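*Gm8797* fell past the threshold in all 3 types under every alternative except limma in Muller glia (log2 fold change -3.61, adjusted p = 0.412). Leaving out each retina in turn, its log2 fold change lay between -2.80 and -2.74 in rods, -3.24 and -2.61 in bipolar cells and -2.92 and -2.61 in Muller glia. The counts of genes called moved more. With no filter on low counts 21 genes were called in rods, 20 in bipolar cells and 41 in Muller glia, and with the wild type in the fit 12 in bipolar cells and 9 in Muller glia. DESeq2, a minimum of 10 UMIs in every retina and thinning to equal totals each left 1 call in bipolar cells and 1 in Muller glia. Restricting cells by sex transcripts left 1 in bipolar cells, and limma left 0 in Muller glia. Leaving out each retina in turn gave 1 to 44 calls in rods, 9 to 61 in bipolar cells and 29 to 47 in Muller glia. The cause was not tested. *Lyz2* in bipolar cells reversed without heterozygous retina 1 (log2 fold change 1.52, against -4.08 to -2.73 without each other retina), and lost its call with DESeq2 (adjusted p = 1.00) and with DESeq2 size factors in edgeR (adjusted p = 0.146). *Xist* in bipolar cells lost it with DESeq2 (adjusted p = 1.00) and without heterozygous retina 2 (-2.10, adjusted p = 0.611). Neither gene was among the calls with thinning, and *Lyz2* was not among them with limma. Neither was called with cells restricted by sex transcripts, a rule that chooses cells by *Xist* itself. A minimum of 10 UMIs in every retina could not test them, because it removed both genes beforehand. *Lyz2* had 1 UMI in heterozygous retina 2 and 5 in knockout retina 2, and *Xist* was below 10 in knockout retina 2. Leaving out the microglial cells could not test *Lyz2* either, since 0 of its UMIs remained in the bipolar sums.

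For differences between types, DESeq2 size factors gave 1 call for bipolar cells minus rods, and a minimum of 10 UMIs in every sum 0 for Muller glia minus bipolar cells. Leaving out each retina gave 0 to 7 calls for bipolar cells minus rods, 0 to 15 for Muller glia minus bipolar cells and 0 to 7 for Muller glia minus rods. The share difference reversed for Muller glia (-1.50 points) and cones (-5.10 points) among cells that are not rods, and for cones without knockout retina 1 (-0.601, range over retinas left out -0.601 to 2.24 points). No paired analysis was possible because the labels give the retinas of the 2 genotypes no shared animal, litter or batch number. A fit with sex as a term was not run, since 1 heterozygous retina alone differed in sex transcripts. With 2 retinas per genotype and 14 to 75 Muller glia per retina, depth limits what low genes can show.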

Other observations

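*Rnf121*, a ubiquitin ligase, was high in 1 heterozygous retina in all 3 types. It was at 230 CPM in the rods of heterozygous retina 1 and 223 CPM in those of the wild type, against 34.9 CPM in heterozygous retina 2 and 38.1 and 32.6 CPM in the knockout retinas. In bipolar cells it was at 129 CPM in heterozygous retina 1 against 30.2 to 38.9 CPM in the other 3 retinas tested, and in Muller glia at 214 CPM against 6.89 to 31.6 CPM. *Cwc22*, a splicing factor, was at 85.9 and 39.9 CPM in heterozygous and 124 and 38.2 CPM in knockout rods, and *Hddc3* at 27.3 and 12.5 against 49.1 and 6.94 CPM. For both, heterozygous retina 1 and knockout retina 1 were the higher ones in rods and in Muller glia, so the genotypes overlapped. *Mxra7*, one of the genes the study named for the P0 knockout, was at 54.1 and 74.8 against 92.2 and 81.2 CPM in P14 rods (log2 fold change 0.49, edgeR adjusted p = 1.00). The genotypes did not overlap, and the wild type was at 42.3 plain CPM. *Mxra7* lies at chr11:116803062-116828046, within 10 Mb of *Sstr2*, so it tends to be inherited with the targeted allele. Whether its level followed the loss of *Sstr2* or a linked allele was not tested. *Rpl29* was at 627 and 376 against 562 and 344 CPM in P14 rods.

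In cones, which were not tested, *Gm8797* took 6.46% and 7.71% of the UMIs assigned to it or *Ubb* in heterozygous retinas, 0.768% and 1.38% in knockout retinas and 14.2% in the wild type, the same order as in the 3 types tested.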
